A study of Mus musculus with 14 samples.

Results

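Described here are 9 genes of the T cell receptor complex and its signalling, Cd3e, Cd3d, Cd3g, Cd247, Lck, Cd4, Cd5, Cd6 and Cd28. They were chosen by name, not by their values, and each symbol matched 1 row, so that 9 of the 54532 genes in the deposited table are described. The data are bulk RNA-seq of tumours grown from 4T1, a mouse mammary carcinoma line, which was injected under the skin in the mammary area of mice. Mice received intraperitoneal PBS, or PBS carrying cyclophosphamide (CTX), an alkylating drug that crosslinks DNA, at 100 mg/kg (CTX100) or 140 mg/kg (CTX140). Injections began on day 9, when tumours were near 100 mm3, and were repeated every 6 days, and tumours were collected on day 3 after cycle 3. There were 4 PBS, 5 CTX100 and 5 CTX140 libraries, called by group and replicate number below. All tumours came from the same line and the same number of injected cells, 1000000, and the labels used here give no strain, sex or age for the host mice.

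The T cell receptor has antigen-binding chains with almost no signalling tail of their own. They are held at the cell surface by the CD3 epsilon, delta, gamma and zeta chains, whose tails carry tyrosine motifs. When the receptor meets a peptide on an MHC molecule, the kinase Lck, which rides on the coreceptors CD4 and CD8, phosphorylates these motifs and a cascade of kinases and adaptors follows. In tumours, transcripts of this complex mark infiltrating T cells, since carcinoma cells do not normally carry it.

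The genes of the CD3 chains are shown with their promoters because these subunits are assembled into the same complex and because 3 of them are neighbours. Cd3g, Cd3d and Cd3e lie within 40056 bases of chromosome 9, and the start sites of Cd3g and Cd3d are 1354 bases apart on opposite strands. Cd247, the gene of the zeta chain, is on chromosome 1. RefSeq promoter windows on GRCm38.p6 run from 250 bases before the start site to 50 bases from it, and 6 of the 9 genes matched a window (Cd3e, Cd3d, Cd3g, Cd247, Lck and Cd5). The windows printed are chr9:45009562-45009861 on the minus strand for Cd3e, chr9:44981536-44981835 on the plus strand for Cd3d, chr9:44980382-44980681 on the minus strand for Cd3g and chr1:165788431-165788730 on the plus strand for Cd247. Each is written 5′ to 3′ along the gene, in lower case with capitals where a motif matched on either strand. The core of the ETS family was searched as GGAAGT. The site of the RUNX proteins, which act throughout T cell development, was searched as TGTGGT. The E-box was searched in the form CAGGTG, and the GATA family site in the form AGATAA.
Cd3e: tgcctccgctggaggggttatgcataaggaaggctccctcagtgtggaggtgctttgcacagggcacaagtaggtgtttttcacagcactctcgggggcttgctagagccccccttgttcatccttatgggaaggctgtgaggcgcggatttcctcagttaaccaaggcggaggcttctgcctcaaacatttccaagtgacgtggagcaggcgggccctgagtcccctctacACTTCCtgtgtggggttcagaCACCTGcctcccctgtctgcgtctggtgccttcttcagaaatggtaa
Cd3d: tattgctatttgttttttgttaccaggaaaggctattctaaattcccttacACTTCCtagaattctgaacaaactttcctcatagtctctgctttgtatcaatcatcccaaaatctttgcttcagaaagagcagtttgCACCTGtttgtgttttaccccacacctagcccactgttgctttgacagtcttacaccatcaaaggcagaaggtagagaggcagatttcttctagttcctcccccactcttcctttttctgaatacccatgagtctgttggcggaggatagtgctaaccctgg
Cd3g: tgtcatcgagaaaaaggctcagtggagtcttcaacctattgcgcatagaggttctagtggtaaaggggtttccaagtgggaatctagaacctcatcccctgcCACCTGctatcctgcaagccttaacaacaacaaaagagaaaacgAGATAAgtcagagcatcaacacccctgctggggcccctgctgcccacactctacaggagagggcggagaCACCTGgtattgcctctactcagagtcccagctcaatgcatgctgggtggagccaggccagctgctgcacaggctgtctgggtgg
Cd247: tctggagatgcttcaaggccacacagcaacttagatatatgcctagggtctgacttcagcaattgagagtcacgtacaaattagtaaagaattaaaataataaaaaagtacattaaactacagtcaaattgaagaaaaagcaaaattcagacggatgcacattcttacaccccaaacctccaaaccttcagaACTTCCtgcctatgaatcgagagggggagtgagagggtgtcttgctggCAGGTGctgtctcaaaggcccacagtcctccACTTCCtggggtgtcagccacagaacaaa
None of the capital stretches overlap. The E-box letters, bound by E proteins among others, were in each of these 4 windows, with 2 matches for Cd3g. The ETS core was in the windows of Cd3e, Cd3d and Cd247 (2 matches in the last), and the GATA letters were only in that of Cd3g among the 4. Over all 32851 windows of the same length, 20.2% held the E-box, 23.8% the ETS core, 16.8% the RUNX letters and 11.2% the GATA letters. The window of Cd5 and both windows of Lck also held the E-box and the ETS core. A match is a run of letters and not a measured site.

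In the deposited table, on mm10, the genes of the complex are Cd3e (ENSMUSG00000032093) at chr9:44998740-45009627 on the minus strand, Cd3d (ENSMUSG00000032094) at chr9:44981786-44987339 on the plus strand, Cd3g (ENSMUSG00000002033) at chr9:44969572-44980431 on the minus strand and Cd247 (ENSMUSG00000005763) at chr1:165788681-165877277 on the plus strand. The kinase is Lck (ENSMUSG00000000409) at chr4:129548344-129573641 on the minus strand, and the coreceptor is Cd4 (ENSMUSG00000023274) at chr6:124864692-124888221 on the minus strand. The regulators are Cd5 (ENSMUSG00000024669) at chr19:10718143-10738974 on the minus strand and Cd6 (ENSMUSG00000024670) at chr19:10789341-10830058 on the minus strand, and the costimulatory receptor is Cd28 (ENSMUSG00000026012) at chr1:60716800-60773359 on the plus strand. Each gene has 1 value per library, and isoforms were not analysed here.

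Library totals, in units of 1000000 counts, ran from 14.4 to 19.3, and mitochondrial transcripts took 3.09 to 9.81% of them, with the highest share in CTX140 1. The keratins Krt8 and Krt18 of the carcinoma ranged over 752 to 1169 CPM and 636 to 995 CPM in PBS, where CPM is the count scaled to a library of 1000000 with TMM factors. The labels call the cells triple-negative; in PBS tumours Esr1 was at 7.99 to 16.1 CPM, Pgr at 0 to 0.137 CPM and Erbb2 at 32.7 to 36.0 CPM. Macrophage markers summed to 634 to 3493 CPM over all libraries. In such bulk samples, fewer cells of a type and less RNA per cell cannot be told apart.

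Libraries of each group stood apart by markers of B cells and of lymph node tissue. The 8 B cell markers, Ms4a1, Cd79a and Pax5 among them, summed to 80.5 CPM in PBS 1, 27.2 CPM in CTX100 3 and 129.3 CPM in CTX140 1. CTX140 2 had 20.9 CPM and the other 10 libraries 3.02 to 10.0 CPM. Ms4a1, which encodes CD20, had 14.3, 0.205, 0.140 and 0.165 CPM in PBS 1 to 4, 0, 0.0597, 3.66, 0.130 and 0.124 CPM in CTX100 1 to 5 and 19.5, 0.178, 0.0613, 0 and 0 CPM in CTX140 1 to 5. It was near 0 in all libraries but these 3. Glycam1, a mucin-like product of lymph node venules and of lactating mammary gland, had 108, 0.0683, 0.0699 and 0 CPM in PBS 1 to 4, 0.121, 0.239, 20.0, 0 and 0.186 CPM in CTX100 1 to 5 and 404, 1.72, 2.08, 0.137 and 0 CPM in CTX140 1 to 5. The 8 lymph node markers (Cxcl13, Ccl19, Ccl21a, Cr2, Fcer2a, Glycam1, Madcam1 and Ltb) summed to 163 CPM in PBS 1, 53.9 CPM in CTX100 3 and 659 CPM in CTX140 1, with 68.6 CPM in CTX140 2 and 12.7 to 46.4 CPM in the other 10 libraries. Of these markers, Ccl19 was at 0.180 CPM in CTX140 1 and at 0 in PBS 1 and CTX100 3. The tests of CTX140 against PBS are therefore also given without CTX140 1, and without PBS 1, CTX100 3 and CTX140 1 together.

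**Figure D1:**
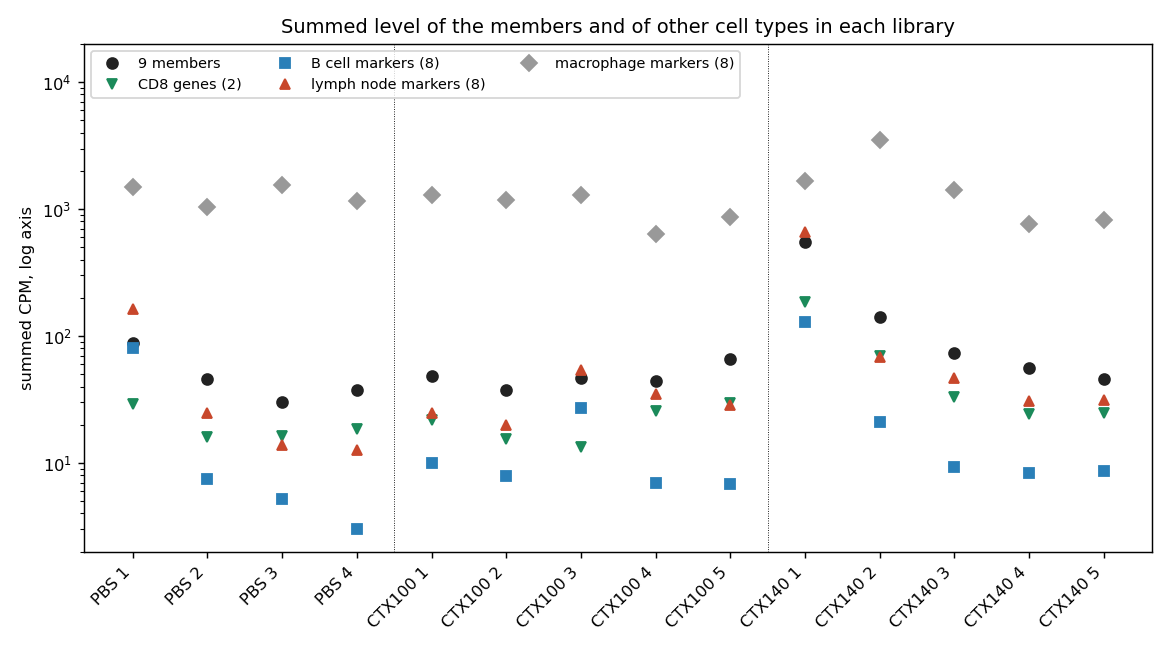
Summed CPM on a log axis for the 9 receptor genes and for markers of other cell types, 1 point per list and library, with the groups PBS, CTX100 and CTX140 divided by dotted lines. The receptor genes reach 554 CPM in CTX140 1, where B cell markers reach 129.3 CPM and lymph node markers 659 CPM; macrophage markers are highest in CTX140 2, at 3493 CPM.

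Cd3e, whose epsilon chain pairs with both the delta and the gamma chain, had 7.35, 3.48, 1.05 and 3.24 CPM in PBS 1 to 4, 3.14, 2.99, 3.31, 4.87 and 3.77 CPM in CTX100 1 to 5 and 44.0, 12.4, 4.17, 3.42 and 2.30 CPM in CTX140 1 to 5. CTX140 1 was the highest of all 14 libraries and PBS 3 the lowest, and the other CTX140 libraries lay at 2.30 to 12.4 CPM, overlapping the PBS range of 1.05 to 7.35 CPM. The lowest value rests on 15 counts, with an exact Poisson 95% interval of 8.40 to 24.7 counts that covers counting error only. Cd3e overlaps the gene models Gm48719 and Gm48720, neither of which had more than 8 counts in a library.

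For Cd3d, the delta chain, the levels were 12.7, 6.08, 3.84 and 4.12 CPM in PBS 1 to 4, 7.78, 4.30, 5.76, 6.04 and 9.71 CPM in CTX100 1 to 5 and 83.2, 19.8, 11.4, 8.81 and 5.67 CPM in CTX140 1 to 5. Here 2 CTX140 libraries, CTX140 1 and 2, were above every PBS library, and PBS 1 was the highest PBS library. Cd3g, the gamma chain, had 17.7, 11.9, 9.50 and 10.1 CPM in PBS 1 to 4, 10.4, 10.0, 10.5, 15.0 and 22.7 CPM in CTX100 1 to 5 and 118, 40.7, 23.9, 19.1 and 16.2 CPM in CTX140 1 to 5. In this gene 4 of 5 CTX140 libraries were above every PBS library, the exception being CTX140 5, and CTX100 5 was above them too.

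The zeta chain gene Cd247, whose homodimer carries most of the tyrosine motifs of the complex, had 5.18, 1.78, 0.769 and 1.37 CPM in PBS 1 to 4, 2.05, 1.07, 1.95, 1.75 and 2.91 CPM in CTX100 1 to 5 and 39.4, 5.94, 2.70, 2.80 and 1.71 CPM in CTX140 1 to 5. CTX140 1 held 75.2% of the group's counts of this gene, and the other CTX140 libraries, at 1.71 to 5.94 CPM, overlapped PBS at 0.769 to 5.18 CPM. Cd247 overlaps Pou2f1 on the opposite strand and other models, none of which had more than 415 counts in a library. The labels do not say whether strand was used in counting.

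Lck, the Src family kinase that starts the signal, had the largest count of the 9 genes in a single library, 2207 in CTX140 1. Its levels were 23.3, 11.2, 6.15 and 11.9 CPM in PBS 1 to 4, 12.6, 8.78, 12.6, 9.61 and 15.2 CPM in CTX100 1 to 5 and 132, 35.2, 15.0, 13.3 and 8.99 CPM in CTX140 1 to 5. The order at the ends was the same as for Cd3e, with CTX140 1 highest, CTX140 2 next and PBS 3 lowest. Cd4, the coreceptor for MHC class II, had 9.52, 3.69, 2.52 and 1.70 CPM in PBS 1 to 4, 4.04, 5.14, 6.31, 2.40 and 2.78 CPM in CTX100 1 to 5 and 56.2, 13.8, 6.50, 2.60 and 3.16 CPM in CTX140 1 to 5. PBS 4 was the lowest library, and CTX140 3, 4 and 5 lay inside the PBS range of 1.70 to 9.52 CPM.

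Cd5 and Cd6 are neighbouring genes, 50366 bases apart on chromosome 19, that encode related scavenger receptor proteins which tune receptor signalling; CD6 binds ALCAM, and CD5 is also carried by a subset of B cells. Cd5 had 4.40, 2.32, 1.19 and 0.934 CPM in PBS 1 to 4, 0.965, 1.07, 1.70, 0.649 and 1.61 CPM in CTX100 1 to 5 and 24.6, 2.61, 1.23, 0.956 and 0.482 CPM in CTX140 1 to 5. Outside CTX140 1 the CTX140 libraries were at 0.482 to 2.61 CPM, within or below the PBS range of 0.934 to 4.40 CPM, and CTX140 5 was the lowest of all libraries, with 9 counts. Cd6 had 4.70, 3.55, 3.14 and 2.42 CPM in PBS 1 to 4, 3.56, 2.45, 3.26, 1.88 and 3.90 CPM in CTX100 1 to 5 and 39.6, 7.54, 4.42, 2.39 and 3.53 CPM in CTX140 1 to 5. CTX140 1 and 2 were above every PBS library, and CTX140 3, 4 and 5 overlapped PBS.

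Cd28, the receptor for CD80 and CD86 that gives the second signal, had 2.71, 2.05, 2.10 and 1.81 CPM in PBS 1 to 4, 4.10, 1.91, 1.70, 2.40 and 3.59 CPM in CTX100 1 to 5 and 17.6, 4.22, 4.78, 2.39 and 4.12 CPM in CTX140 1 to 5. As for Cd3g, 4 of 5 CTX140 libraries were above every PBS library, the exception here being CTX140 4. CTX100 3 was the lowest of all libraries, and 2 CTX100 libraries were above the PBS range.

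**Figure D2:**
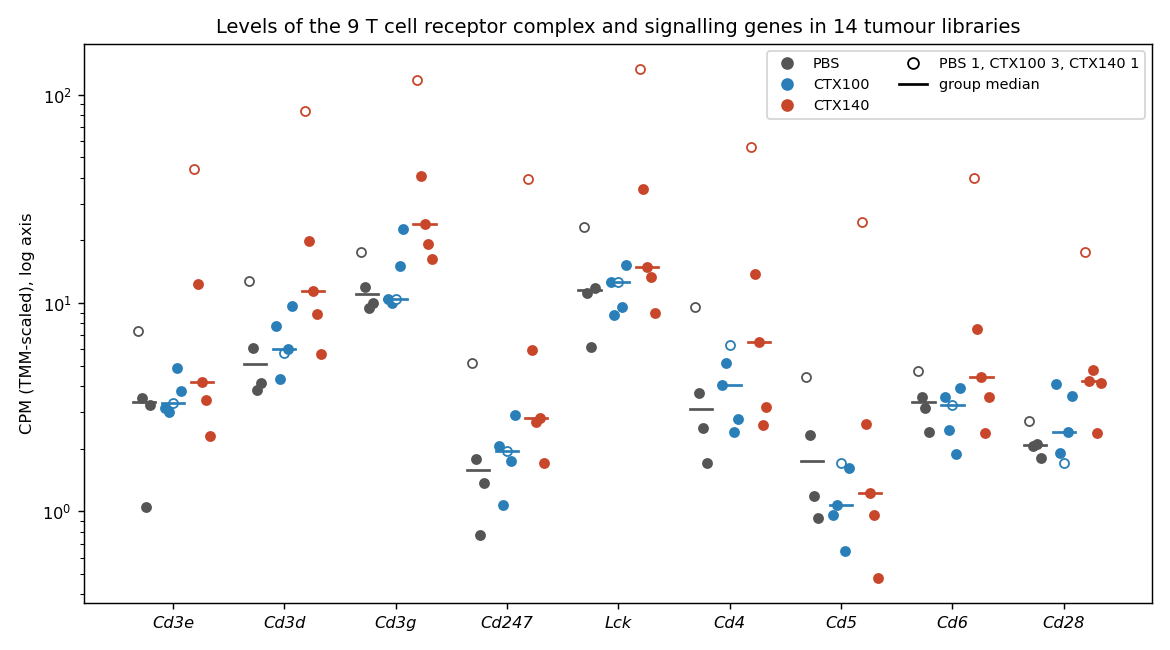
CPM on a log axis of the 9 genes in each library, with 1 point per library, a bar at each group's median, and open points for PBS 1, CTX100 3 and CTX140 1. CTX140 1 is the highest point of every gene, and without the open points the CTX140 and PBS points of Cd3g and of Cd28 do not overlap.

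A single library took the top of every gene. CTX140 1 was the highest of 14 libraries for 9 of 9 genes, against 16.2% of tested genes, at 2.89 to 6.63 times the level of the next library. Its level was 4.54 (Cd28) to 18.6 (Cd5) times the mean of the other 4 CTX140 libraries, and 1.80% of tested genes reached a ratio of 4.54. PBS 1 was the highest PBS library for 9 of 9 genes, against 21.9% of tested genes, at 1.37 (Cd28) to 3.97 (Cd247) times the mean of the other 3. These are the libraries with the most B cell and lymph node transcripts, and the part of those cells in the T cell gene levels was not tested. CTX100 3, which also carried such transcripts, differed between the genes. It was the highest CTX100 library for Cd4, at 6.31 CPM, and for Cd5, at 1.70 CPM. For Cd28 it was the lowest of all libraries, at 1.70 CPM. For the remaining genes a different CTX100 library was highest, and Cd3e was at 3.31 CPM, against 2.99 to 4.87 CPM in the other 4 CTX100 libraries.

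At the high dose, 2 of the 9 genes passed the test against PBS, and both were higher. Cd3g rose: its CTX140 mean was 43.5 ± 42.4 CPM (SD, n = 5) and its PBS mean 12.3 ± 3.73 CPM (SD, n = 4), with a fitted log2 fold change of 1.82 ± 0.53 (SE; adjusted p = 0.0270, edgeR quasi-likelihood test, Benjamini-Hochberg method across every tested gene). Cd28 rose as well, with means of 6.63 ± 6.21 CPM in CTX140 tumours and 2.17 ± 0.384 CPM in PBS tumours and a fitted log2 change of 1.61 ± 0.49 (edgeR adjusted p = 0.0297). For each gene 4 of 5 CTX140 libraries lay above every PBS library. This is 22.2% of the 9 genes, and 21.3% of the 15360 genes tested were called in this comparison, 11.1% higher and 10.1% lower, so the count of calls is near the background. The fitted changes of all 9 were positive, with a median of 1.80, where the median over all tested genes was 0.02.

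The 7 other genes did not pass in edgeR. Among the CD3 chains, Cd3d had a log2 difference of 1.94 ± 0.69 (adjusted p = 0.0601), where Cd247 had 2.20 ± 0.88 (adjusted p = 0.0873) and Cd3e 1.80 ± 0.77 (adjusted p = 0.111). For the kinase and the coreceptor these were 1.64 ± 0.68 in Lck (adjusted p = 0.0995) and 1.91 ± 0.82 in Cd4 (adjusted p = 0.111). The regulators had 1.73 ± 0.70 in Cd6 (adjusted p = 0.0883) and 1.43 ± 0.95 in Cd5 (adjusted p = 0.301). The SD exceeded the mean of CTX140 for 7 of the 9 genes, Cd3g and Cd28 being the exceptions, and CTX140 overlapped PBS for 9 of 9, as for 85.7% of tested genes.

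Without CTX140 1 all 9 changes were smaller. Cd3g had 1.03 ± 0.32 (edgeR adjusted p = 0.0362) and was the only call among the 9, where 20.2% of tested genes were called. Cd28 had 0.84 ± 0.32 (adjusted p = 0.0717), 6 other genes had 0.38 to 0.77, and Cd5 turned to -0.74 ± 0.53 (adjusted p = 0.339). Without PBS 1, CTX100 3 and CTX140 1 together, 16.7% of tested genes were called, and of the 9 genes these were Cd3d, at 1.30 ± 0.39 (adjusted p = 0.0383), and Cd3g, at 1.26 ± 0.34 (adjusted p = 0.0237). In that set Cd3g was at 16.2 to 40.7 CPM in the 4 CTX140 libraries and 9.50 to 11.9 CPM in the 3 PBS libraries, and Cd28 at 2.39 to 4.78 CPM in CTX140 and 1.81 to 2.10 CPM in PBS; the groups did not overlap in either gene. Cd28 had 0.98 ± 0.34 there (adjusted p = 0.0641), and Cd5 had -0.15 ± 0.54 (adjusted p = 0.871).

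Without PBS 2, PBS 3 or PBS 4 none of the 9 genes passed in edgeR, with changes about as large as before. Cd3g then had 1.80 ± 0.64 (adjusted p = 0.0596), 1.71 ± 0.61 (adjusted p = 0.0820) and 1.71 ± 0.62 (adjusted p = 0.0862), and Cd28 had 1.58 ± 0.57 (adjusted p = 0.0544), 1.59 ± 0.57 (adjusted p = 0.0782) and 1.51 ± 0.56 (adjusted p = 0.0885). Without PBS 1, CTX140 4 or CTX140 5 there were 4 calls each, which added Cd3d in all 3 fits and Cd247, Cd6 or Lck in 1 fit each.

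**Figure D3:**
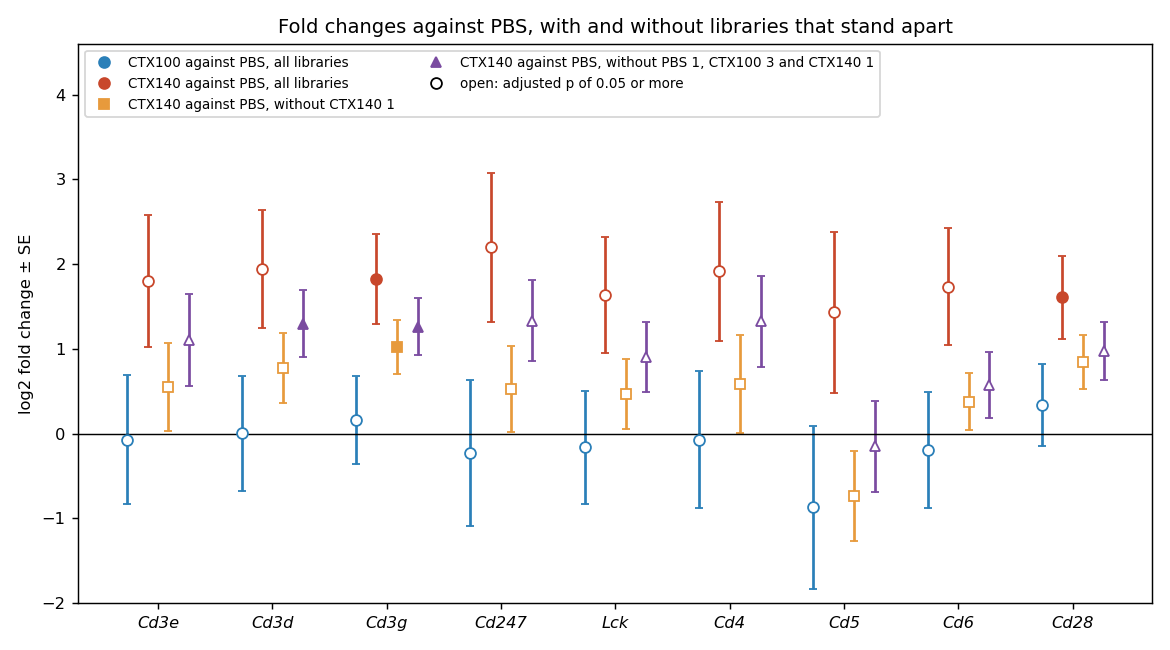
Fitted log2 fold changes of the 9 genes with their SE, for CTX100 against PBS and for CTX140 against PBS with all libraries and with libraries left out; filled points passed the adjusted p threshold of 0.05. With all libraries every CTX140 point is above 0, from 1.43 to 2.20, and without CTX140 1 that of Cd5 is at -0.74.

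At the low dose no gene of the receptor set passed the test against PBS. The edgeR count was 0 of 9 where 1.6% of all tested genes were called, 0 of 9 had an unadjusted p under 0.05, and DESeq2 and limma on FPKM also called 0. The log2 fold changes ran from -0.87 ± 0.97 in Cd5 (adjusted p = 0.686) to 0.34 ± 0.49 in Cd28 (adjusted p = 0.770), with a median of -0.07, and 3 of 9 were positive. CTX100 and PBS overlapped in every gene. The sign of 4 of them rested on PBS 1: without it Cd3e had 0.47, Cd247 0.57, Cd4 0.66 and Lck 0.26, against -0.07, -0.23, -0.07 and -0.16 with all libraries. The SEs were 0.49 to 0.97 on the log2 scale with all 3 groups in the fit, and 0.27 (Cd3g) to 0.47 (Cd247) with only CTX100 and PBS, where 0 of 9 passed as well.

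Between the doses, all 9 genes had higher fitted levels in CTX140 than in CTX100, and none passed. The log2 fold changes were 1.27 ± 0.45 (Cd28) to 2.43 ± 0.82 (Cd247), the smallest adjusted p in edgeR was 0.0819 (Cd3g), and 1.25% of tested genes were called. All 9 had an unadjusted p under 0.05, DESeq2 called 5 of them (Cd3d, Cd3g, Cd247, Cd6 and Cd28) and limma on FPKM called 0. Without CTX140 1 the range was 0.13 (Cd5) to 0.87 (Cd3g), and without CTX140 5 edgeR called Cd3d (adjusted p = 0.0470) and Cd3g (adjusted p = 0.0370). The comparisons share libraries and are not independent of each other.

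Per length, the 9 genes kept a coarse order in every library. FPKM, the authors' count divided by gene length and by a constant per library, put Lck, Cd3d and Cd3g in the top 3 of the 9 in each of the 14 libraries, and Cd247, Cd28 or Cd5 last. In PBS the means were 4.46 ± 2.46 FPKM for Lck, 3.75 ± 1.14 FPKM for Cd3g and 3.67 ± 2.28 FPKM for Cd3d (SD, n = 4), which did not differ beyond their spread. The next 4, Cd4, Cd5, Cd6 and Cd3e, were at 1.08 ± 0.875, 1.07 ± 0.761, 1.01 ± 0.281 and 0.923 ± 0.640 FPKM, again within their spread. Cd247 at 0.425 ± 0.371 FPKM and Cd28 at 0.353 ± 0.0630 FPKM were the lowest. In CTX140 1 the top gene was Cd3d, at 45.3 FPKM, and the lowest was Cd28, at 2.84 FPKM.

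Relative to Cd3e in the same library, some genes moved little and others spread widely. The FPKM of Cd247 was 0.324 to 0.562 times that of Cd3e over PBS libraries, 0.276 to 0.590 times over CTX100 libraries and 0.368 to 0.685 times over CTX140 libraries. Lck was 4.41 to 8.17 times Cd3e over PBS, 2.75 to 5.62 times over CTX100 and 3.97 to 5.44 times over CTX140. Cd5 differed more: its ratio was 0.568 to 2.24 over PBS, 0.263 to 1.02 over CTX100 and 0.413 to 0.580 over the CTX140 libraries other than CTX140 1, which had 1.10. In CTX140 and CTX100 the library with the highest Cd5 ratio was the one with the most B cell transcripts, CTX140 1 and CTX100 3, whereas in PBS it was PBS 3 and not PBS 1, which had 1.18. The part of B cells in the Cd5 level was not tested. Cd3g was 3.33 times Cd3e in CTX140 1 and 3.00 times in PBS 1, the lowest ratios of their groups. The denominator is small in PBS 3, with 15 counts, where the ratios of all 8 genes were the highest of PBS.

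**Figure D4:**
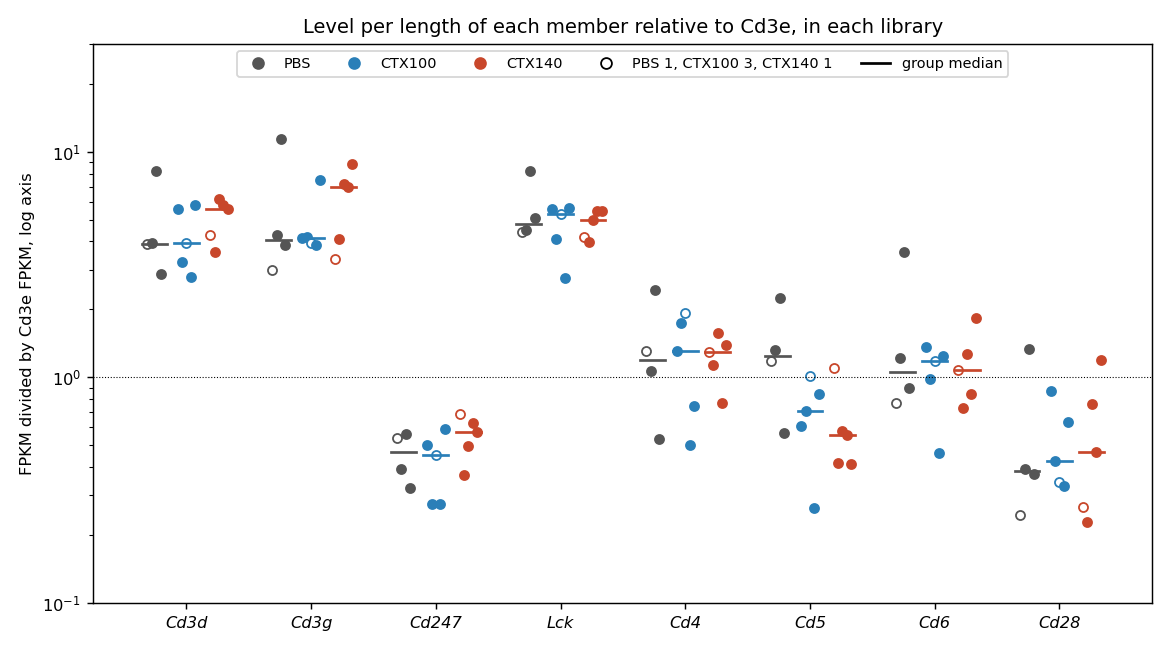
FPKM of 8 genes divided by the FPKM of Cd3e in the same library, on a log axis, with 1 point per library, bars at the group medians and open points for PBS 1, CTX100 3 and CTX140 1. Cd3d, Cd3g and Lck lie above the dotted line at 1 in every library and Cd247 below it; the CTX140 points of Cd5 other than the open one lie at 0.413 to 0.580.

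Among the antigen-binding chains, some constant genes were called at the high dose. In CTX140 against PBS, 21.3% of all tested genes were called in edgeR, 11.1% higher. Of the 8 constant-region genes of the receptor, 5 passed the filter on low counts, and 4 of these rose in CTX140 against PBS in edgeR, with a median log2 fold change of 1.81 over the 5. Trbc2, a beta chain constant gene, had 20.3, 11.5, 7.34 and 8.29 CPM in PBS 1 to 4, 10.9, 6.99, 8.87, 11.0 and 17.4 CPM in CTX100 1 to 5 and 162, 52.0, 17.3, 11.0 and 13.5 CPM in CTX140 1 to 5. Its log2 fold change was 2.11 ± 0.72 (edgeR adjusted p = 0.0496), and only CTX140 1 and 2 were above the PBS libraries. Trbc1 had 2.20 ± 0.72 (edgeR adjusted p = 0.0437) and the gamma chain gene Tcrg-C2 1.81 ± 0.57 (adjusted p = 0.0351), while the alpha chain gene Trac had 1.41 ± 0.69 (adjusted p = 0.155). The delta chain gene Trdc had 1.72 ± 0.58 (adjusted p = 0.0444) on low counts, 3 to 12 in a PBS library. It was at 0.210 to 0.820 CPM in PBS, 3.4 CPM in CTX140 1 and 0.547 to 1.19 CPM in CTX140 2 to 5. Tcrg-C2 was highest in CTX140 2, at 13.0 CPM, not in CTX140 1, at 9.59 CPM. Without CTX140 1 none of the 5 passed (smallest edgeR adjusted p = 0.0618, Tcrg-C2), and without the 3 libraries together Trbc1 and Tcrg-C2 did (adjusted p = 0.0369 and 0.0224). The beta constant genes, and some of the gamma ones among themselves, are near-identical copies whose reads can be split or lost in counting, so their separate levels are uncertain. Tcrg-C1, Tcrg-C3 and Tcrg-C4 did not pass the filter; Tcrg-C3 had 0 counts in PBS and CTX100 and at most 9 in a CTX140 library.

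The other coreceptor rose with them. Cd8a had 20.6, 11.8, 11.3 and 14.6 CPM in PBS 1 to 4, 16.3, 11.5, 9.42, 19.2 and 21.2 CPM in CTX100 1 to 5 and 119, 52.7, 20.6, 17.4 and 15.8 CPM in CTX140 1 to 5. CTX140 1 and 2 were above every PBS library, and CTX140 3 was level with PBS 1. Its log2 fold change in CTX140 against PBS was 1.63 ± 0.55 (edgeR adjusted p = 0.0468), and that of Cd8b1, the beta chain, was 2.00 ± 0.59 (adjusted p = 0.0284). Without CTX140 1 Cd8b1 had 1.03 ± 0.32 (adjusted p = 0.0344) and Cd8a 0.87 ± 0.37 (adjusted p = 0.112). Without the 3 libraries Cd8b1 had 1.34 ± 0.32 (adjusted p = 0.0137) and Cd8a 1.10 ± 0.38 (adjusted p = 0.0684). The FPKM of Cd4 was 0.106 to 0.418 times that of Cd8a in PBS, 0.113 to 0.605 times in CTX100 and 0.134 to 0.427 times in CTX140, so Cd8a was the higher of the pair per length in all 14 libraries. In each group the highest ratio was in PBS 1, CTX100 3 or CTX140 1.

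Downstream of the receptor, the count of called genes differed between tools and sets of libraries. Over all tested genes edgeR called 21.3% in CTX140 against PBS, 11.1% higher and 10.1% lower. Among 27 genes of proximal signalling, 0 rose and 2 fell in CTX140 against PBS in edgeR: Nck2, an actin adaptor, which fell by 0.87 on the log2 scale (SE 0.14, adjusted p = 0.000805), and Sos1, a Ras exchange factor, which fell by 0.42 (SE 0.13, adjusted p = 0.0292). Both are also used by cells other than T cells, and their levels in PBS were 80.9 to 132.9 CPM and 29.4 to 41.9 CPM, where Zap70, whose use is largely limited to T and NK cells, was at 2.66 to 8.08 CPM. Of the 27, 14 had an unadjusted p under 0.05, DESeq2 called 9 and limma on FPKM 2. Without the 3 libraries edgeR called 3 of the 27 higher and 3 lower. The higher ones were Lat, at 1.29 ± 0.39 (adjusted p = 0.0390), the adaptor gene Skap1, at 1.41 ± 0.42 (adjusted p = 0.0352), and the kinase gene Prkcq, at 1.76 ± 0.53 (adjusted p = 0.0383). The lower ones were Nck2, at -0.93 ± 0.17 (adjusted p = 0.00284), Sos1, at -0.50 ± 0.14 (adjusted p = 0.0252), and Plcg1, at -0.45 ± 0.14 (adjusted p = 0.0408). Plcg1 had -0.48 ± 0.12 without CTX140 1 (adjusted p = 0.0141) and -0.35 ± 0.14 with all libraries (adjusted p = 0.0798). Without CTX140 1 edgeR called 0 of the 27 higher and 3 lower. The list's median change was 0.98, with 23 of 27 positive, and 0.19 without CTX140 1. Zap70, the kinase that docks on the CD3 motifs, had 1.63 ± 0.62 (adjusted p = 0.0741) and the adaptor Lat 1.94 ± 0.74 (adjusted p = 0.0753). Of 14 genes that restrain the signal, 0 were called in edgeR, 3 had an unadjusted p under 0.05, DESeq2 called 2 and limma on FPKM 0; the median change was 0.10. Dgka, a diacylglycerol kinase, had 0.25 ± 0.41 with all libraries (adjusted p = 0.698), but -0.52 ± 0.14 without CTX140 1 (adjusted p = 0.0166) and -0.50 ± 0.15 without the 3 libraries (adjusted p = 0.0345), where edgeR called it lower.

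Among 16 tested transcription factors and targets linked to T cell activation, 4 rose in CTX140 against PBS and 0 fell, with a median of 0.79. This is 25% of the 16, where 21.3% of all tested genes were called, 11.1% higher. Nfatc3 had -0.32 ± 0.17 with all libraries (adjusted p = 0.180). EdgeR called it lower without CTX140 1, at -0.50 ± 0.14 (adjusted p = 0.0198), and without the 3 libraries, at -0.49 ± 0.16 (adjusted p = 0.0494). Tnfrsf9, the costimulatory receptor 4-1BB, was at 64.7 to 92.6 CPM in PBS and 117 to 179 CPM in CTX140. Cd3e was at 1.05 to 7.35 CPM and 2.30 to 44.0 CPM in these groups, and which cells carried Tnfrsf9 was not tested. The mean of Tnfrsf9 was 141 ± 27.0 CPM in CTX140, against 74.1 ± 12.6 CPM with PBS. It rose by 0.93 ± 0.17 on the log2 scale (edgeR adjusted p = 0.00170), and had 0.99 ± 0.17 without CTX140 1 (adjusted p = 0.00134). Of the 136 tested genes of all these lists it was also the only one edgeR called in CTX140 against CTX100, at 0.71 ± 0.16 (adjusted p = 0.0402), where 72 had an unadjusted p under 0.05, DESeq2 called 32 and limma 0 or 1, depending on the pseudocount. That is 0.735% of the 136, where edgeR called 1.25% of all tested genes. Without CTX140 1 the change of Tnfrsf9 was 0.78 ± 0.16, no smaller, with an adjusted p of 0.0517. The immediate early factors Egr1 and Egr2, which many cell types induce, rose by 1.03 ± 0.20 (adjusted p = 0.00244) and 0.66 ± 0.14 (adjusted p = 0.00395). Nr4a3 rose by 1.07 ± 0.37 (adjusted p = 0.0463) and had 0.65 without CTX140 1 (adjusted p = 0.124). Il2 and Cd40lg, products of activated T cells, did not pass the filter.

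On the ligand side, Cd80, which encodes a partner of CD28 on antigen-presenting cells, was higher. It was at 16.4 ± 5.07 CPM in CTX140, against 5.29 ± 1.79 CPM with PBS, and rose by 1.62 ± 0.25 on the log2 scale (edgeR adjusted p = 0.000554), and 1.47 ± 0.24 without CTX140 1 (adjusted p = 0.000928). Every CTX140 library, at 11.5 to 23.1 CPM, was above every PBS library, at 3.07 to 6.93 CPM. In CTX100 it was at 9.42 to 11.8 CPM, also above every PBS library, with 1.01 ± 0.25 and an adjusted p of 0.0509 that did not pass, and 1.21 ± 0.26 without the 3 libraries (adjusted p = 0.0461). Of the 5 other ligands, none passed: Cd86 had 0.57 ± 0.35 (adjusted p = 0.255), Alcam, the partner of CD6, 0.22 ± 0.13 (adjusted p = 0.235), and the MHC class II genes H2-Aa, H2-Ab1 and H2-Eb1 0.46 to 0.55. Of 4 relatives of Cd28, Pdcd1, which encodes PD-1, rose by 1.42 ± 0.44 (adjusted p = 0.0342) and had 1.08 without CTX140 1 (adjusted p = 0.0688); Icos, Ctla4 and Btla had 1.34, 0.41 and 0.35 and did not pass.

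Other T cell and NK cell genes gave a mixed count, where edgeR called 21.3% of all tested genes in CTX140 against PBS, 11.1% higher. Of 11 T cell identity genes, 3 rose in CTX140 against PBS and 0 fell, with a median of 1.43: Thy1 by 1.17 ± 0.23 (edgeR adjusted p = 0.00281), Cd2 by 1.98 ± 0.65 (adjusted p = 0.0437) and Il7r by 1.43 ± 0.47 (adjusted p = 0.0440). Cd2 and Il7r lost their calls without CTX140 1 (adjusted p = 0.0940 and 0.0925). Without the 3 libraries Cd2 was called, at 1.30 ± 0.35 (adjusted p = 0.0244), and Il7r was not, at 1.05 ± 0.37 (adjusted p = 0.0711). Without CTX140 1 the list's median was 0.24 and Thy1, which fibroblasts also express, kept its call (0.95 ± 0.19, adjusted p = 0.00299). Of 6 tested NK markers 1 rose, Prf1, which encodes perforin and which cytotoxic T cells share, by 0.83 ± 0.21 (adjusted p = 0.0133). The NK markers summed to 52.1 CPM in CTX140 1 and 53.5 CPM in CTX140 2, so CTX140 1 did not stand apart there; Klra8 was at 0 in every library. Of the immature thymocyte markers, Rag2 was at 0 in every library, and of 3 tested 0 were called, with 1 at an unadjusted p under 0.05 and 0 by DESeq2 or limma.

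The markers of other cells moved as follows in CTX140 against PBS, where edgeR called 21.3% of all tested genes, 11.1% higher. Of 5 tested B cell markers 0 passed in edgeR, with 0 at an unadjusted p under 0.05 and 0 by DESeq2 or limma. Of 5 tested lymph node markers 2 rose, Madcam1 by 2.15 ± 0.60 (adjusted p = 0.0186) and the lymphotoxin gene Ltb by 1.69 ± 0.53 (adjusted p = 0.0359). Of 8 macrophage markers Cd68 rose by 0.83 ± 0.28 (adjusted p = 0.0462), and of 8 dendritic cell markers Cd209a rose by 2.60 ± 0.71 (adjusted p = 0.0184). Without CTX140 1 Ltb had 0.85 ± 0.30 (adjusted p = 0.0556), and Cd68 had 0.88 ± 0.30 (adjusted p = 0.0536), a change no smaller than with all libraries. Without the 3 libraries edgeR called 3 lymph node markers higher. These were Cxcl13, at 4.31 ± 0.72 (adjusted p = 0.00221), Madcam1, at 2.26 ± 0.65 (adjusted p = 0.0292), and Ltb, at 1.13 ± 0.31 (adjusted p = 0.0249). Madcam1 had only 5, 1 and 2 counts in PBS 2 to 4. Glycam1 and Ccl21a had no test in that set, and Cr2, Fcer2a and Ccl19 did not pass the filter with all libraries. The calls thus do not cover the whole list. With all libraries Cxcl13 had 2.58 ± 1.05 (adjusted p = 0.0931). Of the B cell markers 0 were called without the 3 libraries. Of 7 tested adipocyte markers 6 rose, led by Adipoq at 4.46 ± 0.71 (adjusted p = 0.000947). Of 7 carcinoma markers 4 rose, led by Krt19 at 3.57 ± 0.68 (adjusted p = 0.00283), while Krt8 had -0.06 ± 0.14 (adjusted p = 0.796) and Krt18 -0.17 ± 0.16 (adjusted p = 0.488). The summed levels were 91.7 to 463 CPM in CTX140 and 12.1 to 70.7 CPM in PBS for adipocytes, and 1251 to 1931 CPM in CTX140 and 1437 to 2254 CPM in PBS for carcinoma. Of the 3 receptors tied to the triple-negative label, Pgr rose (adjusted p = 0.00736, and 0.00742 without CTX140 1) and was at 0.410 to 8.93 CPM in CTX140 and 0 to 0.137 CPM in PBS, a level too low for a fold. Erbb2 fell by 0.53 (SE 0.12, adjusted p = 0.00511) and Esr1 had 0.42 ± 0.29 (adjusted p = 0.309). In CTX100 against PBS, 0 of the 136 tested genes of all these lists passed in edgeR, 11 had an unadjusted p under 0.05, DESeq2 called 7, and limma called 0 or 2, depending on the pseudocount. Of all tested genes, 1.6% were called there in edgeR.

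Over the 14 libraries the closest profile to that of Cd3e was the kinase gene Lck. Likeness was the root-mean-square difference of log2 CPM after centring each gene, 0.318 for Lck, 0.395 for Cd247 and 0.426 for Cd3d, where the median of all tested genes was 1.22. Cd3g had 0.539, Cd4 0.620, Cd6 0.629, Cd5 0.714 and Cd28 0.767, so Cd28 was the least like Cd3e among the 8. Outside all lists the 5 nearest protein-coding genes were Tox at 0.333, Gimap1 at 0.339, Tbc1d10c at 0.401, Rasal3 at 0.443 and Gimap6 at 0.449. In CTX140 1, the library where Cd3e was highest, these 5 were at 10.3 CPM (Tox) to 100.5 CPM (Gimap6). Tox, a nuclear factor of T cell development and exhaustion, averaged 3.19 CPM in CTX140 and 1.05 CPM in PBS, and Gimap6, a GTPase of lymphocytes, 30.2 CPM in CTX140 and 11.7 CPM in PBS.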

How the data were processed

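RNA from tumours was sequenced by the authors on an Illumina platform, per the labels. The authors deposited whole-number read counts per gene and FPKM values for 14 libraries, on mm10 per the submitters' processing notes, which also name DESeq2; aligner, counter and strand use were not given in these sources. The deposited FPKM equalled the count divided by gene length and by 1 constant per library.

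Counts were tested with edgeR 4.0.16 (R 4.3.3): TMM factors, filterByExpr by group (15360 genes kept, all 9 genes followed here among them), robust quasi-likelihood test, two-sided, 1 mean per group over all 14 libraries, and Benjamini-Hochberg adjustment over all genes tested. Calls needed an adjusted p below 0.05. CPM uses TMM-scaled library sizes. Nothing in the labels ties a library to its own animal; the p-values thus describe scatter among these 14 libraries, which may be technical. The test was also run on counts drawn with known changes. No library was drawn to stand apart as CTX140 1 does, so that run does not cover this setting. Alternatives used RLE factors, other filters, no robust step, a replicate block, DESeq2 1.42.0, limma 3.58.1 on log2(FPKM + 1) and log2(FPKM + 0.1), only the compared groups, and each library left out in turn.

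Named were all 9 genes, the T cell receptor chain and CD8 genes, up to 3 called genes of each other list by smallest p, and the 5 protein-coding genes nearest to Cd3e; Lat, Zap70, Skap1, Prkcq, Dgka and other genes that did not pass with all libraries were added after their values were seen. The 9 genes, the 17 lists and the libraries left out together were chosen with earlier results of these data known. Where a symbol had more than 1 identifier (Ccl19, Ccl21a), sums used the first. Single values of some list genes are not reported here. Coordinates are those of the deposited table; 8 of the 9 genes have the same ones in GENCODE M21, all but Cd5. For genes other than the 9, only CTX140 1 and the 3 libraries were left out. No library was left out of the main results, and no replicates differed by as little as sampling noise. Counting intervals are exact and cover counting error only.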

Additional observations from a re-analysis of the deposited data

Results flagged for a closer look

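In CTX140, 1 library lay far above the other 4 for every receptor gene: CTX140 1. For each gene the gap between CTX140 1 and the next library, divided by the range of the group, was above the 95% critical value of Dixon for 5 samples, 0.710. The gap took 0.759 of the range for Cd3e, 0.818 of the range for Cd3d, 0.758 of the range for Cd3g, 0.888 of the range for Cd247, 0.790 of the range for Cd4, 0.911 of the range for Cd5, 0.862 of the range for Cd6, 0.843 of the range for Cd28 and 0.788 for Lck. In Lck, for example, CTX140 1 was at 132 CPM and the next library, CTX140 2, at 35.2 CPM. Of 27 groups of libraries tested (9 genes in 3 groups), these 9 passed, where chance passes about 1 in 20; the 9 share the same library and are not independent. No PBS or CTX100 library passed. CTX140 1 also had the most B cell and lymph node transcripts and the highest mitochondrial share, 9.81%; their part in the gap was not tested.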

How the results depend on the processing

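Across 19 or 20 alternatives a comparison, 0 of the 9 genes were called in CTX100 against PBS throughout, while the calls in CTX140 against PBS moved between 0 and 4. Of the 9 genes, 2 were called as reported, 4 with DESeq2, 1 without a filter, 1 with limma on log2(FPKM + 1) or log2(FPKM + 0.1), 0 with only the compared groups, and 0 to 4 with 1 library left out. DESeq2 also called more of the 136 tested genes of the other lists in CTX140 against PBS, 48 against 34 in edgeR. Limma called 23 or 26 of them, depending on the pseudocount. The share over all genes with DESeq2 or without a filter is not reported here. In CTX140 against CTX100 the 0 calls among the 9 genes became 5 with DESeq2 and 0 to 2 with 1 library left out. DESeq2 gave no adjusted p for Cd5.

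Over all genes, the 245 calls of CTX100 against PBS became 839 with DESeq2, 148 with limma on log2(FPKM + 1), 529 with only the compared groups and 17 (without PBS 3) to 686 (without PBS 2) with 1 library left out. The 3268 calls of CTX140 against PBS became 1878 with only the compared groups and 1975 to 3894 with 1 library left out. The 192 calls of CTX140 against CTX100 became 1250 with DESeq2, 12 without the 3 libraries, a set chosen after seeing the data, and 0 to 1007 with 1 library left out. The cause was not tested.

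The sign of small changes in CTX100 against PBS turned. Cd3d had -0.0031 without a filter. With limma on log2(FPKM + 1) Cd3e had 0.021 and Cd4 0.020, and with log2(FPKM + 0.1) Cd3e had 0.15, Cd247 0.0080 and Cd4 0.11. Without the 3 libraries Cd3e had 0.50, Cd247 0.57, Cd4 0.45 and Lck 0.24. With 1 library left out the range was -0.38 to 0.47 for Cd3e, -0.19 to 0.52 for Cd3d, -0.10 to 0.38 for Cd3g, -0.51 to 0.57 for Cd247, -0.35 to 0.66 for Cd4 and -0.40 to 0.26 for Lck. In CTX140 against PBS Cd5 ran from -0.74 to 2.00, and had -0.15 without the 3 libraries.

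Equal replicate numbers were not used as pairs in the main fits. The deviations of same-numbered libraries correlated at -0.19 to 0.43, the highest being PBS 1 with CTX140 1. With so few libraries this cannot decide whether the samples were paired. With the replicate number as a block, 4 of the 9 genes were called in CTX140 against PBS, 293 genes in all were called in CTX140 against CTX100, and in CTX100 against PBS Cd3e had 0.57, Cd247 0.37, Cd4 0.57 and Lck 0.20.

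Depth limits Cd5, Cd247 and Cd3e most, with as few as 9, 11 and 15 counts in a library.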
